A study of Mus musculus with 48 samples.

Results

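Fgf4, Fgfr1, Fgfr2, Spry2, Spry4, Spred1, Dusp6, Etv4 and Etv5 were followed across every deposited list and table of a ChIP-seq study of mouse embryonic stem cells. They are a ligand, a pair of receptors, 3 inhibitors, a phosphatase and a pair of transcription factors of the FGF to ERK pathway, 9 of the 21900 protein-coding genes placed on the mm10 genome. They were taken by name, and each region listed within 1 kb of either end of a gene was assigned to it. The study's title places ZBTB11 and ZFP131, BTB zinc finger proteins, in the pausing of RNA polymerase II at differentiation genes, and the comparisons ask how chromatin changed without each factor.

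Wildtype cells were the iCre line, labelled Ainv15(iCre). The Zbtb11KO line carries a doxycycline-inducible HA-tagged Zbtb11 copy (iZbtb11-HA), the Zfp131KO line carries iZfp131-HA, and the double knockout carries iZbtb11-HA with iZfp131-V5. Except for the HA samples, all cells spent 3 days without doxycycline, and so without induction of those copies, in medium with LIF and without the 2 kinase inhibitors known as 2i. The HA samples, which mapped the tagged ZBTB11 and ZFP131, came from the single knockout lines with doxycycline, 3 days in 2i and LIF. One of the 2i inhibitors, PD0325901, blocks the MEK kinases of this pathway, so the HA maps and the other maps differ in medium as well as in doxycycline. Each genotype is 1 line, and each target and genotype has 2 libraries that the labels do not describe as separate cultures, so the p-values measure a spread between libraries that may be technical. The double knockout was compared for NELF and H3K4me3. All values are pooled over the libraries of a group or come from comparisons made by the authors, and no value per library was available.

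Embryonic stem cells make FGF4 themselves. The ligand binds FGF receptors at the cell surface, the signal passes through RAS, RAF and MEK to ERK, and ERK activity moves the cells away from the naive state towards lineage commitment. ERK signaling also switches on its own brakes: Sprouty and Spred proteins, which act on receptor and RAS signaling, and DUSP6, a phosphatase that removes the activating phosphates of ERK. ETV4 and ETV5 are ETS family transcription factors whose genes are widely used readouts of FGF signaling. NELF holds RNA polymerase II in a pause just past the start of a gene, H3K4me3 marks promoters, H3K27ac marks active promoters and enhancers, and H3K27me3 marks Polycomb-repressed chromatin.

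On GRCm38.p6, the assembly of mm10, Fgf4 lies at chr7:144861386-144865245, Fgfr1 at chr8:25518759-25575718, Fgfr2 at chr7:130162451-130266808 and Spry2 at chr14:105891947-105896819. Spred1 lies at chr2:117121071-117182279, Dusp6 at chr10:99263231-99267489, Etv4 at chr11:101769747-101785310 and Etv5 at chr16:22381313-22439570. An end of Arhgap26 lies within 1 kb of the end of Spry4 with the higher coordinate, and no end of another protein-coding gene was that near to the other 8. The Spry4 regions called in any table lie at that end, where signal of Spry4 and of Arhgap26 cannot be told apart.

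Of the 9 genes, 6 had a promoter entry from RefSeq (GRCm38.p6), each covering 250 bp before and 50 bp after an annotated start. Those of Fgf4, Dusp6, Etv5 and Spred1 are shown to 30 bp past the start because the strongest NELF events described below sit at or just after them. Capitals mark matches, on either strand, to the GC box GGGCGG and the CCAAT box CCAAT. The Fgf4 window spans chr7:144861136-144861415 on the plus strand, that of Dusp6 chr10:99262981-99263260 on the plus strand, that of Etv5 chr16:22439541-22439820 on the minus strand, and that of Spred1 chr2:117120821-117121100 on the plus strand.
Fgf4: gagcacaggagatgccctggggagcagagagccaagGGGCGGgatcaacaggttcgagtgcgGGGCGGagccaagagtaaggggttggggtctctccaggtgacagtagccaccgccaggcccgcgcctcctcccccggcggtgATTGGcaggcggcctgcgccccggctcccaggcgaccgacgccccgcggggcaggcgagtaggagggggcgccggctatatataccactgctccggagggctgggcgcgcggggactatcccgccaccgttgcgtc
Dusp6: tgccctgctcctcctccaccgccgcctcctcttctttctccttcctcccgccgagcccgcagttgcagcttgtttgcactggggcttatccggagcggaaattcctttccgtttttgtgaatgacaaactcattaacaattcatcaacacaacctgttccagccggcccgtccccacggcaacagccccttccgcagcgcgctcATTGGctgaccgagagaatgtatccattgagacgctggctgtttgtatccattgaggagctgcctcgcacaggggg
Etv5: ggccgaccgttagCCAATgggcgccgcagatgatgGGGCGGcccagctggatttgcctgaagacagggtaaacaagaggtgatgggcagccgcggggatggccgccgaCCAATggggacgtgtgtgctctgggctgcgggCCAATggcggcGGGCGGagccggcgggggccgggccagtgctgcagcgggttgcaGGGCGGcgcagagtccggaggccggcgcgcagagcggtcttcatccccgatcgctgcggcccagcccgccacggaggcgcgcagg
Spred1: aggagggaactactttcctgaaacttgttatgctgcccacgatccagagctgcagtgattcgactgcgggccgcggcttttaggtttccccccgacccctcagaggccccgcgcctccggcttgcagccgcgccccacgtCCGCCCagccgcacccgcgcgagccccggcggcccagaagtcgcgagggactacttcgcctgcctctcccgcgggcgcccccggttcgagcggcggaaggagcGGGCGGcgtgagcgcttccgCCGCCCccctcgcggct

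The Fgf4 promoter held 2 GC boxes and 1 CCAAT box, the Etv5 promoter 3 of each, the Spred1 promoter 3 GC boxes and no CCAAT box, and the Dusp6 promoter 1 CCAAT box and no GC box. Over the whole 300 bp windows, GC boxes were found at 3 of the 6 genes and in 46.2% of 21263 promoters, and CCAAT boxes at 3 of 6 and in 38.2%. The ETS core CCGGAA was found at 1 gene, Spry2, and in 18.7% of promoters, and the SOX core ACAAAG also at Spry2 alone and in 16.8%. The TATA box TATAAA (12.6% of promoters), an OCT core (1.66%) and a serum response core (0.0941%) had no match at the 6 genes. These are matches of letters, on both strands, and no claim about binding.

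In wildtype cells all 9 genes carried H3K4me3, H3K27ac, NELF, SIN3A and polymerase II phosphorylated on serine 5 (the form found near promoters) within 1 kb of an end. Over all protein-coding genes the shares were 64.2% for H3K4me3, 46.1% for H3K27ac, 59.3% for NELF, 60.4% for SIN3A (the scaffold of a histone deacetylase complex) and 57.3% for the polymerase. SETD1A, an H3K4 methyltransferase, had an event at 8 of the 9 genes, against 43.7% of all genes, and the gene without one was Fgfr2. CHD4, the remodeler of the NuRD complex, had an event at 4 of 9, Fgf4, Spry4, Etv5 and Spred1, against 11.3%.

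Within this shared pattern the genes differed widely. Dusp6 had one of the strongest H3K4me3 domains of the genome, 5919 bp long with 10940 reads, ranked 17 of 48733. Fgf4 lay inside a polymerase domain of 9195 bp with 5789 reads, ranked 312 of 189490, which reached past the end of the gene. Etv5 had the strongest NELF event of the 9 genes, 1450.3 reads at 99 bp past its annotated start, followed by Fgf4 with 1090.3 reads at 69 bp, Fgfr1 with 825.5 reads, Spry4 with 807.9 reads and Dusp6 with 639.0 reads at 69 bp. At Spred1 the strongest NELF event, 584.5 reads, lay 166 bp before the annotated start, inside the printed window. Fgfr2 stood at the other extreme, with 17 polymerase reads in a 53 bp domain, 42 H3K27ac reads and 228.8 NELF reads in all. Fgfr2 was also the only one of the 9 with a large wildtype H3K27me3 domain, 711 reads beside its H3K4me3, while the wildtype H3K27me3 domains at Fgf4 (94 reads in all) and Etv4 (50 reads) were small and the other 6 genes had none.

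ZBTB11, mapped by its HA tag, had events at 6 of the 9 genes, against 35.9% of all genes. Fgfr1 had the most reads, 191.7 in 1 event, followed by Spred1 with 101.9, Etv5 with 99.7 in 2 events, Dusp6 with 98.3 in 2 events, Etv4 with 81.2 and Fgf4 with 42.5. Counted from the strongest event, the Fgf4 event stood 85.6% of the way down the list, and it lay 535 bp past the annotated start. ZFP131 had an event at 1 of the 9, against 10.2% of all genes. That gene was Etv4, where the ZFP131 event (74.9 reads, 442 bp inside the end with the higher coordinate) lay close to the ZBTB11 event (379 bp inside the same end). Spry2, Spry4 and Fgfr2 had no event of either factor within 1 kb.

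NELF was lower in Zbtb11KO cells at most of these genes and most of all at Fgf4. The authors' deposited NELF comparison was the same under both single knockouts, and which of them it belongs to was not established. It is read here as Zbtb11KO. Each gene was represented by its region of highest mean signal, which was called when the adjusted p of the authors' deposited table (DESeq2 with Benjamini-Hochberg adjustment over all regions) was under 0.05. By that rule 7 of the 9 genes were called lower and 0 higher (the same numbers as at an unadjusted p under 0.05), while over 13321 genes with a region 55.3% were lower and 0.0901% higher. The share of the 9 genes was thus not far from that of all genes, and the median log2 fold change in the authors' deposited table was -1.08 over the 9 genes and -0.97 over all genes. With each value taken relative to the median of all regions, -1.04, none of the 9 genes was called.

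Fgf4, the ligand, fell by 2.19 on the log2 scale (SE 0.35, adjusted p = 2.88e-07) by the authors' deposited table, lower than all but 1.78% of genes. All 3 Fgf4 regions of that table fell, but of the 3 wildtype events there only 1 was still listed in Zbtb11KO. Listing through wildtype alone favours a fall. Fgfr1, the receptor gene with the most ZBTB11 reads, fell by 1.71 (SE 0.35, adjusted p = 5.68e-05) by the authors' deposited table. Fgfr2 was not called, with -0.77 in the authors' deposited table (SE 0.45, adjusted p = 0.128).

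Among the inhibitors of the pathway, the authors' deposited table gave -1.27 for Spred1 (adjusted p = 0.00204), -1.08 for Spry2 (adjusted p = 0.0297) and -0.73 for Spry4 (adjusted p = 0.0493), and all 3 were called lower. Dusp6 was not called at its region of highest mean signal, at -0.64 (SE 0.33, adjusted p = 0.0886) by the authors' deposited table. Of its 10 regions, however, 3 were called lower, the ones that end before the annotated start, at -1.27 (adjusted p = 0.000969), -1.21 (adjusted p = 0.00641) and -0.90 (adjusted p = 0.0208) by the authors' deposited table. The ETS factor genes fell, Etv4 by 1.33 (adjusted p = 0.00207) and Etv5 by 1.03 (adjusted p = 0.00438) in the authors' deposited table. Counted over every region of the 9 genes, many of which overlap, 27 were called lower, 0 higher and 19 were not called in the authors' deposited table, and the gene with no called region was Fgfr2. Over all 70551 regions of that table, 34548 were called lower and 112 higher.

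The event lists extend the NELF picture to Zfp131KO and the double knockout, for which no separate NELF table was used. Reads in events are given here per 10 M reads of the pooled libraries, and they carry no test. Fgf4 had 231.8 in wildtype and 51.0 in Zbtb11KO, and no event was listed there in Zfp131KO or in the double knockout. Only the event near the start, at 68 bp, was still listed in Zbtb11KO, while wildtype cells had 3. Fgf4 was the only one of the 9 genes with no NELF event in Zfp131KO, where 74.2% of genes with at least 50 wildtype reads still had one.

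Fgfr1 went from 153.0 in wildtype to 53.5 in Zbtb11KO, 62.7 in Zfp131KO and 35.4 with both genes deleted. Fgfr2 went from 37.8 to 15.6, 28.2 and 11.9 in the same order. Both receptor genes were lowest in the double knockout and kept an event in every genotype.

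Spry4, a Sprouty inhibitor, had 239.4 in wildtype, 113.1 in Zbtb11KO, 54.4 in Zfp131KO and 33.1 with both genes deleted, so its Zfp131KO value was the lower of the single knockouts. Spry2 had 94.8 in wildtype, 24.5 in Zbtb11KO, 47.7 in Zfp131KO and no event in the double knockout, the opposite order. Spred1 had 169.0, 75.3, 85.8 and 30.7 in the order wildtype, Zbtb11KO, Zfp131KO and double knockout. The differences between the single knockouts were not tested.

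Dusp6 and Etv5 kept the most listed NELF reads in every knockout. Dusp6 had 285.6 in wildtype, 178.8 in Zbtb11KO, 180.8 in Zfp131KO and 99.7 with both genes deleted. Etv5 had 361.8, 260.1, 181.7 and 62.1 in the same order, and its strongest event stayed within 71 to 99 bp of the start. Etv4, the other ETS factor gene, had 182.1, 73.6 and 116.1 and no event in the double knockout.

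As log2 ratios to wildtype, the values in Zbtb11KO ran from -2.18 (Fgf4) to -0.48 (Etv5) with a median of -1.28 over the 9 genes, against -0.91 over all genes listed in both genotypes. In Zfp131KO they ran from -2.14 (Spry4) to -0.42 (Fgfr2) with a median of -0.98 over the 8 listed, against -0.73. In the double knockout they ran from -2.86 (Spry4) to -1.52 (Dusp6) with a median of -2.29 over the 6 listed, against -1.76, and 49.2% of genes with at least 50 wildtype reads kept an event. These 3 comparisons share the wildtype libraries. A gene without an event may still hold reads under the level at which events were listed.

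The share of reads inside events was 23.1% in wildtype, 9.8% in Zbtb11KO, 11.4% in Zfp131KO and 5.1% with both genes deleted, where the libraries had 2.7% and 8.0%. The header of the wildtype list names 1 replicate of 60.5 M reads where the other lists name 2. With reads scaled by the total inside events, the medians over the 9 genes were 0.0045, 0.077 and 0.22 in the order Zbtb11KO, Zfp131KO and double knockout. The lower NELF at these genes therefore stood on the scale of all reads and not on that of reads inside events, and fewer NELF molecules on chromatin cannot be told apart from a weaker enrichment of the libraries.

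**Figure D1:**
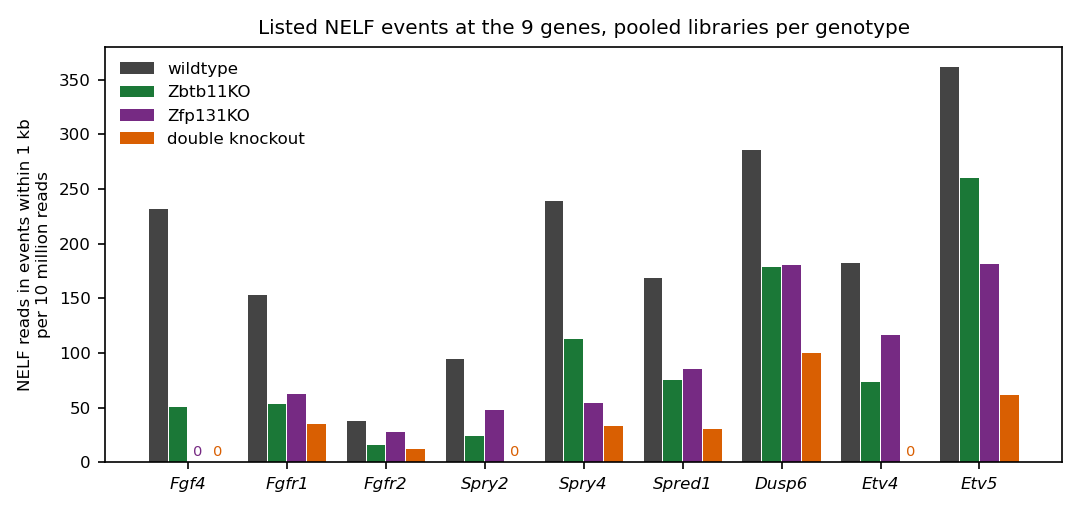
Reads inside listed NELF events within 1 kb of each gene's ends, per 10 M reads of the pooled libraries (y axis), for the 9 genes (x axis) in 4 genotypes (bar colours). A 0 marks a gene with no listed event; wildtype is the highest bar at each gene, and Fgf4 has no event in Zfp131KO or the double knockout.

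H3K27ac rose in both single knockouts at Fgf4 and Etv4. The double knockout was not analysed here for this mark. At Fgf4 the wildtype list held 2 small domains near the start, with 26 and 25 reads, and none at the 3′ end. In Zbtb11KO there was a domain of 870 bp with 208 reads at the start and one of 639 bp with 201 reads at the 3′ end (chr7:144864586-144865225). In Zfp131KO the start had 237 reads over 741 bp and the 3′ end 242 reads over 754 bp (chr7:144864537-144865291). Summed over the window, Fgf4 had 51 reads in wildtype, 472 in Zbtb11KO and 647 in Zfp131KO, while the reads in all domains were 4318588, 3869369 and 4644800. As background, Fgf4 is known to be driven in embryonic stem cells by an enhancer near its 3′ end that binds OCT4 and SOX2.

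The tests at Fgf4 gave the same directions but are no independent support. The 3′ end region has no wildtype domain and was listed through the knockouts, which favours a rise. Over all H3K27ac regions as in the knockout list, the median log2 fold change was 0.95 in Zbtb11KO and 0.87 in Zfp131KO. At the 3′ end region the authors' deposited tables gave a rise of 1.72 on the log2 scale (SE 0.35, adjusted p = 2.75e-05) in Zbtb11KO and of 1.71 (SE 0.34, adjusted p = 1.65e-05) in Zfp131KO. At the start, the authors' deposited tables gave 0.89 (adjusted p = 0.0598, not called) in Zbtb11KO and 1.04 (adjusted p = 0.00984) in Zfp131KO. Of all Fgf4 regions, 3 of 4 rose in Zbtb11KO and 4 of 5 in Zfp131KO. Over all H3K27ac regions, 9923 of 68017 and 10879 of 69018 rose in the same order. The strongest region by mean signal was only 57 bp long in Zbtb11KO, at 2.24 (SE 0.56, adjusted p = 0.000753), and 73 bp in Zfp131KO, at 0.96 (adjusted p = 0.107), in the authors' deposited tables. These contrasts, too, share their wildtype libraries.

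**Figure D2:**
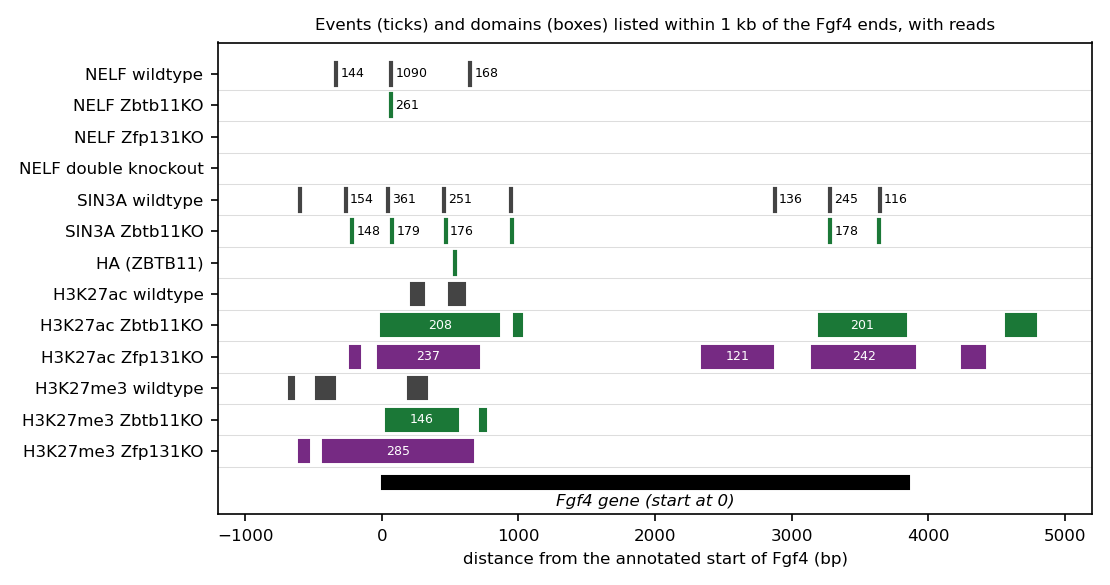
Map of Fgf4 with the distance from its annotated start in bp (x axis) and one row per target and genotype. Ticks are listed events, boxes are listed domains, numbers are reads where at least 100, and the black bar is the gene. The 3′ end carries H3K27ac domains of 201 reads in Zbtb11KO and 242 reads in Zfp131KO and none in wildtype, and NELF events are seen in wildtype and Zbtb11KO rows.

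Etv4 had 145 wildtype H3K27ac reads in a 536 bp domain at its end with the higher coordinate, the end where both factors had their events, and 11 at the other end. In Zbtb11KO the sum over 8 domains was 739 reads and in Zfp131KO it was 1234 over 7 domains, against 156 in wildtype. The longest domain beside that end, which no wildtype domain covered, had 312 reads over 1274 bp in Zbtb11KO and 590 over 1834 bp in Zfp131KO. The authors' deposited tables gave it a rise of 1.87 (SE 0.39, adjusted p = 3.42e-05) and of 2.10 (SE 0.33, adjusted p = 1.32e-08). It was listed through the knockouts, which favours a rise. All H3K27ac regions as in the knockout list had medians of 0.95 and 0.87. In the region of highest mean signal Etv4 rose by 0.93 (SE 0.30, adjusted p = 0.0128) and by 1.48 (SE 0.29, adjusted p = 8.14e-06), again in the authors' deposited tables. In all, 7 of its 8 regions rose in Zbtb11KO and 6 of 8 in Zfp131KO. Over all H3K27ac regions, 9923 of 68017 and 10879 of 69018 rose. Most of the Etv4 regions have the bounds of a knockout domain, so their counts are not independent of the lists.

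At the receptor genes the H3K27ac calls were lower. Fgfr2 had 2 wildtype H3K27ac domains with 42 reads and none in either knockout, and in the authors' deposited table its regions fell by 1.37 (SE 0.38, adjusted p = 0.00309) and by 1.76 (SE 0.51, adjusted p = 0.00466) in Zbtb11KO. In Zfp131KO the authors' deposited table gave -0.73 (adjusted p = 0.202) and -1.22 (adjusted p = 0.135) for them, and neither was called. At Fgfr1 a 58 bp region at the end with the higher coordinate had -1.13 (adjusted p = 0.03) in Zbtb11KO and -1.40 (adjusted p = 0.002) in Zfp131KO in the authors' deposited tables and was called lower in both. A 54 bp region at the same end was called lower in Zbtb11KO at -2.70 (SE 0.44, adjusted p = 6.97e-08) by the authors' deposited table. The regions at the other end of Fgfr1, where NELF and ZBTB11 had their events, were not called in either knockout. Fgfr1 had 87 H3K27ac reads in wildtype, 23 in Zbtb11KO and 24 in Zfp131KO, so these regions were thinly covered. The called regions of Fgfr1 and Fgfr2 have the bounds of wildtype domains that neither knockout listed, which favours a fall. Over all H3K27ac regions as in the wildtype list, the median log2 fold change was -0.64 in Zbtb11KO and -0.79 in Zfp131KO.

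Of the feedback genes, Dusp6 had the most H3K27ac, 1177 reads in wildtype, 712 in Zbtb11KO and 1142 in Zfp131KO, and its main region was not called, at -0.58 (adjusted p = 0.12) and -0.03 (adjusted p = 0.931) in the authors' deposited tables. Spry4 had 393, 412 and 162 reads in the order wildtype, Zbtb11KO and Zfp131KO, Spry2 298, 144 and 127, and Etv5 504, 311 and 574, and none of their regions was called. Spred1 had 293, 187 and 227 reads, and 1 of its 2 regions, 304 bp long and past the start, fell by 0.93 (adjusted p = 0.0352) in Zfp131KO in the authors' deposited table. That region is a wildtype domain of 62 reads with no domain in Zfp131KO, which favours a fall. All H3K27ac regions as in the wildtype list had a median of -0.79 in Zfp131KO.

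Counted by the region of highest mean signal, 2 of the 9 genes fell (Fgfr1 and Fgfr2) and 2 rose (Fgf4 and Etv4) in Zbtb11KO, where 9.94% of all genes fell and 3.7% rose by the authors' deposited table. In Zfp131KO 1 fell (Fgfr1) and 1 rose (Etv4), where 11.1% fell and 4.56% rose. The regions that fell have the bounds of wildtype domains and those that rose the bounds of knockout domains. The counts are thus not independent of the lists. The median over the 9 genes was -0.22 in Zbtb11KO and -0.11 in Zfp131KO, against -0.13 and -0.15 over all genes.

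**Figure D3:**
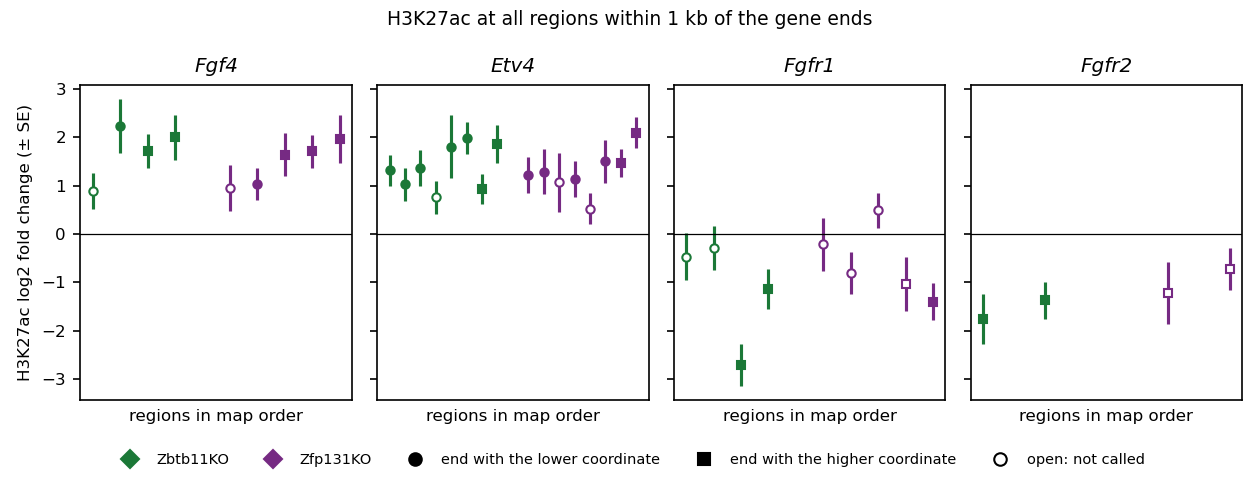
H3K27ac log2 fold change of knockout against wildtype (y axis, bars are the SE) at every region of Fgf4, Etv4, Fgfr1 and Fgfr2, in the order of the chromosome, from the authors' deposited tables. Filled points are called at an adjusted p under 0.05, and circles and squares tell the gene ends apart. The Fgf4 and Etv4 regions, many of them knockout domains, all lie above 0.

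H3K4me3 stayed listed at all 9 genes in every genotype. Domains of the 4 genotypes that overlap were joined into stretches, and the reads given here are those of every domain in a stretch that comes within 1 kb of a gene end, so a domain of one genotype can count although it lies outside that window. At Fgf4 these stretches held 4356 reads in wildtype, 2501 in Zbtb11KO, 2737 in Zfp131KO and 4419 with both genes deleted, as counted by the authors without scaling for depth. Dusp6 had 10940, 5500, 8498 and 14767, and Etv4 had 2587, 3862, 2840 and 5319, in the same order. Among the inhibitors, Spry2 had 9201, 5338, 7544 and 8293, Spry4 5183, 3421, 3771 and 8108, and Spred1 5989, 5404, 3352 and 7026. Fgfr1 had 3652, 4332, 3595 and 6576, and Etv5 had 4008, 4624, 3620 and 6268, so that these 2 and Etv4 were the genes with more unscaled reads in Zbtb11KO than in wildtype. All H3K4me3 domains together held 35134387, 28319335, 32341055 and 59546938 reads in the same order, so such groupings depend on the scaling. Fgfr2 went from 3715 to 2337, 3585 and 8973, the largest of the double knockout ratios, at 1.27 on the log2 scale. The medians of the log2 ratios over the 9 genes were -0.60, -0.29 and 0.65, against -0.42, -0.10 and 0.72 over all genes. Scaled by the reads in all domains, the double knockout median was -0.12.

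By the authors' deposited table of H3K4me3 in Zbtb11KO, 4 of the 9 genes fell and 4 rose, where 24.5% of all genes fell and 42.4% rose. Of its 62288 regions, 12071 had no adjusted p. Fgf4 fell by 0.50 (SE 0.14, adjusted p = 0.000982), Fgfr2 by 0.45, Spry4 by 0.57 and Dusp6 by 0.77 (SE 0.094, adjusted p = 2.06e-15) by the authors' deposited table. Fgfr1 rose by 2.41, Spred1 by 2.59, Etv4 by 3.37 and Etv5 by 3.62 in the authors' deposited table, and Spry2 was not called at -0.22 (adjusted p = 0.109). A second Spry2 region, 2266 bp long, was called lower at -0.74 (SE 0.18, adjusted p = 0.000172) by the authors' deposited table. Beside the Etv5 region that rose, a region of 1096 bp was called lower at -0.79 (SE 0.32, adjusted p = 0.0428) by the authors' deposited table, so the regions of Etv5 went both ways. The read lists did not show rises of that size: the log2 ratios of listed reads were 0.25 for Fgfr1, 0.58 for Etv4, 0.21 for Etv5 and -0.15 for Spred1. These ratios are not scaled for depth, and all domains held 28319335 reads in Zbtb11KO against 35134387 in wildtype. The negative sign of the small Spred1 ratio therefore depends on the scaling. The rises of this table are given as deposited, with their cause not tested.

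In Zfp131KO the authors' deposited table of H3K4me3 called 1 of the 9 genes lower and 0 higher, where 4.18% of all genes fell and 33.5% rose, and 2 of the 9 had an unadjusted p under 0.05. Spred1 fell by 0.50 (SE 0.15, adjusted p = 0.00552) by the authors' deposited table, and the reads of its stretch went from 5989 to 3352. The other 8 genes were not called, with -0.26 (SE 0.75) for Fgf4, -0.10 for Spry4, -0.04 for Dusp6, 0.09 for Spry2, 0.23 for Etv5, 0.26 for Fgfr2, 0.33 for Fgfr1 and 0.35 (SE 0.18) for Etv4 in the authors' deposited table. A Spry2 region of 48 bp, not its strongest, was called lower at -2.09 (SE 0.65, adjusted p = 0.00842) by the authors' deposited table. A domain of that length, with 15 reads, was listed in wildtype and not in Zfp131KO, which favours a fall. All H3K4me3 regions as in the wildtype list had a median of -0.66 in Zfp131KO.

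H3K27me3 had a tested region at 4 of the 9 genes. Spry4 was called higher in both knockouts, at 1.95 (SE 0.64, adjusted p = 0.0229) over 40 bp in Zbtb11KO and 1.10 (SE 0.40, adjusted p = 0.0382) over 47 bp in Zfp131KO, in the authors' deposited tables, and none was called lower. Over all genes 6.46% and 9.95% rose and 3.51% and 6.59% fell in the same tables. These Spry4 domains held 14 and 12 reads, so they were small, and wildtype cells had no domain there. The regions were thus listed through the knockouts, which favours a rise. Over all H3K27me3 regions as in the knockout list, the median log2 fold change was 0.78 in Zbtb11KO and 0.98 in Zfp131KO. At Fgfr2 the large domain kept 671 reads in Zbtb11KO and 380 in Zfp131KO, and the authors' deposited tables gave -0.09 (adjusted p = 0.857) and -0.62 (adjusted p = 0.478). At Fgf4 the sum was 94 reads in wildtype, 158 in Zbtb11KO and 301 in Zfp131KO, but none of its regions was called, and the longest had values of 0.52 (adjusted p = 0.316) and 0.70 (adjusted p = 0.459) in the authors' deposited tables. The Etv4 domain of 50 reads was listed in wildtype alone, with -1.55 (adjusted p = 0.068) and -1.52 (adjusted p = 0.0677) in the authors' deposited tables.

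Few regions were called for the corepressor subunits. For SIN3A in Zbtb11KO the authors' deposited table called 0 of the 9, with 1 at an unadjusted p under 0.05 (Fgf4, -0.40, adjusted p = 0.216), where 2.33% of all genes fell and 5.6% rose. The other 8 had -0.19 (Spry2), -0.12 (Etv4), -0.04 (Fgfr1), 0.01 (Spred1), 0.11 (Etv5), 0.13 (Dusp6), 0.25 (Spry4) and 0.44 (Fgfr2) in the authors' deposited table. The Fgf4 SIN3A reads per 10 M reads were 420.2 over 8 events in wildtype, the most of the 9 genes, and 242.1 over 6 events in Zbtb11KO. A second SIN3A region of Spry2, 849 bp long and not the strongest, fell by 0.66 (SE 0.22, adjusted p = 0.0427) by the authors' deposited table. In Zfp131KO Fgfr2 rose by 0.80 (SE 0.26, adjusted p = 0.0441), where 1.57% of all genes fell and 5.62% rose, and Dusp6 was not called at -0.57 (adjusted p = 0.0661) in the authors' deposited table. The remaining 7 were not called either, at -0.24 (Spry4), -0.23 (Spry2), -0.07 (Etv4), -0.02 (Fgf4), 0.0040 (Etv5), 0.02 (Fgfr1) and 0.03 (Spred1) in the authors' deposited table. At Spry4, 3 overlapping regions beside the strongest one fell by 0.88 to 0.96 (adjusted p from 0.00121 to 0.00572) in that same Zfp131KO table, the authors' deposited one.

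CHD4 had a tested region at 4 genes, and the authors' deposited tables called 0 of them in either knockout, also at an unadjusted p under 0.05. Over all genes 0.636% fell and 2.1% rose in Zbtb11KO, and 6.09% fell and 1.1% rose in Zfp131KO. Spred1 had the lowest value, -0.66 (SE 0.38, adjusted p = 0.232) in Zfp131KO, and Etv5 the highest, 0.51 (SE 0.43, adjusted p = 0.515) in Zbtb11KO, in the authors' deposited tables. In Zbtb11KO the authors' deposited table gave -0.38 for Fgf4, -0.35 for Spred1 and 0.29 for Spry4, and in Zfp131KO it gave -0.57 for Spry4, -0.35 for Etv5 and -0.09 for Fgf4.

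**Figure D4:**
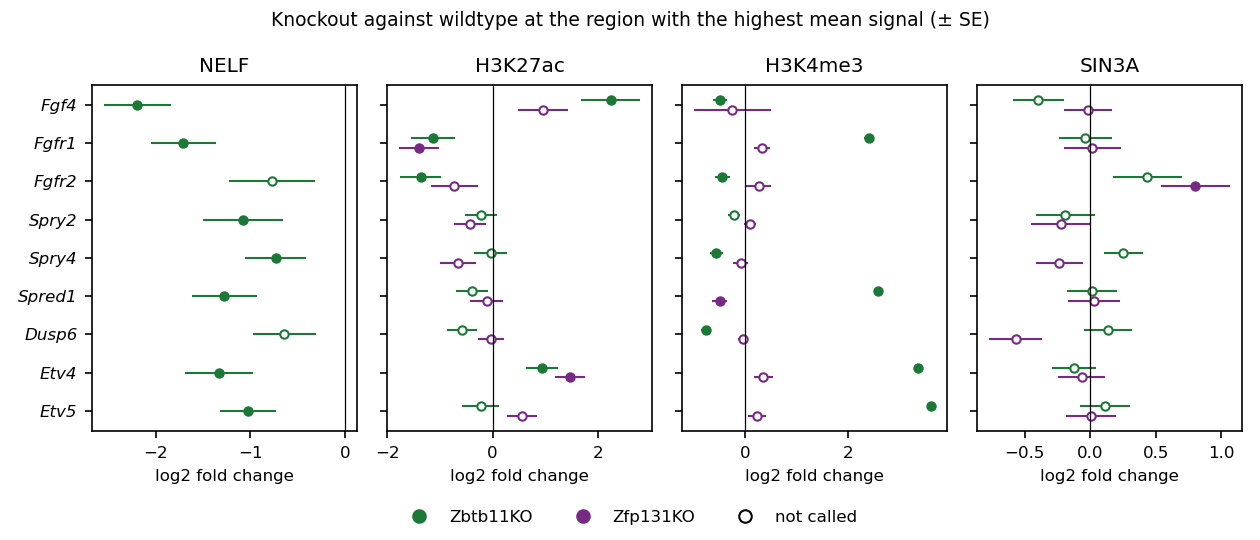
Log2 fold change of knockout against wildtype (x axes, bars are the SE) at the region of highest mean signal of each gene (rows), for 4 targets, from the authors' deposited tables. Filled points are called at an adjusted p under 0.05; every NELF point lies below 0, H3K27ac splits the genes, and most SIN3A points are open.

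A wider list of 57 genes of the pathway (other ligands, receptors, adaptors, kinases, inhibitors and targets) gave the setting. NELF in Zbtb11KO fell at 28 of 55 with a region and rose at 0 in the authors' deposited table, with a median of -0.97, the same as over all genes, of which 55.3% fell and 0.0901% rose. Fgf15, a secreted FGF ligand, fell by 2.52 (adjusted p = 6.51e-05) and Mapk3, which encodes ERK1, by 2.17 (adjusted p = 0.000187) in the authors' deposited table. NELF events were listed at 54 of the 57 in wildtype, 42 in Zbtb11KO, 40 in Zfp131KO and 29 with both genes deleted. The shares of all protein-coding genes with an event were 59.3%, 42.9%, 44.0% and 29.1% in the same order.

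H3K27ac in the wider list fell at 4 of 40 genes and rose at 1 in Zbtb11KO, and fell at 3 of 42 and rose at 3 in Zfp131KO, in the authors' deposited tables. Over all genes 9.94% fell and 3.7% rose in Zbtb11KO, and 11.1% fell and 4.56% rose in Zfp131KO. Dusp4, a phosphatase of ERK, was lower in both, at -3.62 (adjusted p = 1.2e-10) and -2.37 (adjusted p = 0.00704), as was Flrt3, a membrane partner of FGF receptors, at -1.29 and -0.94, in the authors' deposited tables. Ier3 rose by 1.47 in Zbtb11KO, and Araf, a RAF kinase, and Frs3, a receptor adaptor, rose by 1.20 and 1.02 in Zfp131KO, in the authors' deposited tables. H3K27me3 fell at 3 of 29 genes in Zbtb11KO and at 4 of 29 in Zfp131KO and rose at 0, in the authors' deposited tables. Over all genes 3.51% fell and 6.46% rose in Zbtb11KO, and 6.59% fell and 9.95% rose in Zfp131KO. Phlda1 was in both sets, at -2.26 and -1.90, with Dusp9, another ERK phosphatase, at -1.74 in Zbtb11KO and Frs2, the main FGF receptor adaptor, at -1.15 in Zfp131KO, in the authors' deposited tables.

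H3K4me3 in the wider list fell at 11 of 55 and rose at 37 in Zbtb11KO, and fell at 1 of 55 (Nras, -0.94) and rose at 17 in Zfp131KO, in the authors' deposited tables. Over all genes 24.5% fell and 42.4% rose in Zbtb11KO, and 4.18% fell and 33.5% rose in Zfp131KO. Fgf15 (-1.69) and Flrt3 (-1.11) were lowest and Fgfr4 (3.98) and Il17rd (3.80), a receptor-level inhibitor, highest in Zbtb11KO, and Spry1 and Phlda1 (0.76 each) highest of those called in Zfp131KO, in the authors' deposited tables. SIN3A was called at 0 of 55 in Zbtb11KO and rose at 5 of 49 in Zfp131KO, with Dusp9 (0.96) and Ets2 (0.63) the largest, and CHD4 was called at 0 of 16 and 0 of 19, in the authors' deposited tables. For SIN3A 2.33% and 1.57% of all genes fell and 5.6% and 5.62% rose, and for CHD4 0.636% and 6.09% fell and 2.1% and 1.1% rose, in Zbtb11KO and Zfp131KO.

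Over the 11 tables used, the genes whose log2 fold changes were nearest to those of Fgf4 were Gipc2, Aqp3 and Gadd45b, with root mean square differences of 0.67, 0.73 and 0.74 against a median of 1.21 over 120 genes compared. For Dusp6, which has a region in 7 of those tables, they were Myl6 and Myl6b, which share their regions (0.17 each), and Pyroxd1 (0.20), against a median of 0.68 over 6202 genes.

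Wildtype H3K27ac lay at 7 of 8 pluripotency markers (not at Esrrb), 1 of 6 primitive endoderm markers and 0 of 4 trophectoderm and 0 of 6 fibroblast markers. Summed H3K27ac reads at the pluripotency markers were 2864 in wildtype, 6519 in Zbtb11KO and 6533 in Zfp131KO, and at the endoderm markers 149, 0 and 10. The trophectoderm markers had 0, 0 and 17 reads and the fibroblast markers 0 in each. The higher H3K27ac sum of the pluripotency markers moved with the reads at Fgf4, and its part in the Fgf4 result was not tested. The sum was not split by marker, so single genes may carry it. In pooled cells, a change in the share of cells in a state cannot be told apart from a change in every cell.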

How the data were processed

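ChIP-seq libraries of 9 targets, 48 samples in 24 groups of 2, were grouped by the labels' titles. The submitters' processing notes name Bowtie 1.0.1, bedtools, DESeq2 1.28.1 and the build mm10. Per the file headers, the authors used MultiGPS and a control of 45.3 M reads for binding events, and these lists give the signal (reads per event, pooled over replicates, not scaled for depth) and a log2 fold over control. Per the file headers, domains of histone marks and polymerase come from SEED's DomainFinder (p under 0.01, replicates pooled by the authors), with a read count each. Each deposited DESeq2 table gives, per region, the mean signal, the log2 fold change and SE, the p-value and its adjusted form; how the signal was scaled is not given in the sources used here.

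The files hold no counts per region and library, so the planned edgeR fit could not be run and the authors' adjusted p was used. Regions within 1 kb of either gene end (RefSeq, GRCm38.p6) were assigned to the gene, and the one with the highest mean signal was taken. The sign of the fold changes (positive: knockout higher) was checked for the 3 histone marks on regions that a single genotype lists. For NELF, SIN3A and CHD4 the same sign was assumed without that check. Listed reads were divided by the total reads of the headers. Totals per pooled event list ran from 24.0 to 71.6 M reads, and domain lists give no total. The precision behind pooled values is unknown beyond the SE of the tables. Computation used Python 3.11.15, pandas 2.3.3, numpy 2.4.6 and scipy 1.17.1, and the scripts were tested on simulated data. All 9 genes are named in every deposited table that holds a region of them, of the wider list up to 2 called genes in each direction per table with the largest change, and for Fgf4 and Dusp6 the 3 genes nearest in log2 fold change. A region singled out beyond this rule was chosen after its values were seen. The members and lists were chosen with earlier results of these data known. The NELF table of Zfp131KO was identical to that of Zbtb11KO, and the SIN3A events of Zfp131KO to those of CHD4, so neither was used. The NELF table that was kept is read as Zbtb11KO by its label, and its genotype was not checked. Alternatives were the window, the region taken, the threshold, centring and the scaling of reads.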

Additional observations from a re-analysis of the deposited data

How the results depend on the processing

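Of 183 counts and medians recomputed under another setting, 144 stayed within 1.5 times or 1 SD, and of 518 values of single genes 471 kept direction and call, 24 lost a call, 6 gained one and 17 changed sign. With a 500 bp window, H3K27ac counts of lower genes were 0 in both knockouts, H3K27me3 counts of higher genes 0 in both, ZBTB11 events were at 3 genes, and Fgfr2 H3K27me3 in Zbtb11KO was 0.54. With a 2 kb window, 2 genes were higher for H3K27ac and 2 for H3K27me3 in Zfp131KO, SIN3A was lower at 1 gene in each knockout, and ZFP131 events were at 2 genes. With the region nearest to a gene end, H3K27ac was lower at 1 and higher at 1 in Zbtb11KO and lower at 0 and higher at 2 in Zfp131KO; H3K27ac was 0.0061 for Spry4 (Zbtb11KO) and 0.12 for Dusp6 (Zfp131KO), H3K27me3 in Zbtb11KO 0.52 for Fgf4 and 0.25 for Fgfr2, and SIN3A -0.0021 for Etv5 (Zfp131KO). With the longest region, an alternative chosen after seeing the data, the H3K27ac counts were the same 1, 1, 0 and 2, SIN3A in Zfp131KO was lower at 1, H3K27ac of Spry4 in Zbtb11KO was 0.12, H3K27me3 of Fgf4 0.52, and SIN3A in Zbtb11KO -0.24 for Fgfr2, -0.19 for Spry4 and -0.020 for Etv5. At an adjusted p under 0.01, H3K27ac in Zbtb11KO was lower at 1 and higher at 1, H3K27me3 higher at 0 in both, and SIN3A in Zfp131KO higher at 0. Around the annotated start alone, which covers 6 genes, H3K27ac was lower at 1 and higher at 1 in Zbtb11KO and at 0 and 0 in Zfp131KO, H3K27me3 higher at 0 in both, H3K4me3 in Zbtb11KO higher at 2 and NELF lower at 4. Centred on the median of all regions, NELF was lower at 0 genes, with 0.26 for Fgfr2, 0.31 for Spry4, 0.40 for Dusp6 and 0.013 for Etv5, H3K4me3 in Zbtb11KO was lower at 2, and SIN3A in Zfp131KO was higher at 0, with -0.0073 for Fgfr1 and -0.020 for Etv5. Scaled by reads in all events the NELF medians were 0.0045, 0.077 and 0.22, and scaled by reads in all domains the H3K4me3 median of the double knockout was -0.12; the cause was not tested.

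No paired analysis was possible because the files hold no value per library, and for the same reason leaving out each replicate, another normalization and a filter on counts were not run. Depth limits what the domain lists can show, since the median domain held 24 to 29 reads for H3K27ac and 18 to 21 reads for H3K27me3.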
